A study of Mus musculus with 2 samples.

Results

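The genes described here are 10 members of the mucin family other than the goblet cell gel mucin Muc2. They were found by matching the Ensembl identifiers of the gene tables to the symbols Muc1, Muc3, Muc4, Muc13, Muc15, Muc20, Muc5ac, Muc5b, Muc6 and Mucl3. All 10 were present, of 43346 Ensembl genes in the tables. They form 6 glycocalyx mucins (Muc1, Muc3, Muc4, Muc13, Muc15 and Muc20), 3 gastric-type secreted mucins (Muc5ac, Muc5b and Muc6) and the mucin-like gene Mucl3. The samples were intestine tissue of 2 B6NCrl mice on the day of birth (age 0 days), littermates that carried no transgene or treatment named in the labels, with sex not collected. Each gave 1 library from 10 ng of RNA longer than 200 nt, and both libraries form 1 group, called pup 1 and pup 2 here. No source used here names the segments dissected. Expected counts (estimated reads, with shared reads divided) totalled 44568095 for pup 1 and 34797451 for pup 2.

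Mucins are proteins with long stretches rich in serine, threonine and proline that carry dense O-linked glycans. Glycocalyx mucins span the cell membrane and form a brush over the microvilli of enterocytes. Secreted mucins polymerise into gels: Muc2 is the gel of intestinal goblet cells, Muc5ac that of gastric surface cells and airways, Muc6 that of gastric glands and the duodenal Brunner's glands, and Muc5b that of airways and salivary glands.

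Muc13 and Muc3 were the most abundant of the 10 genes, and their start regions are shown for that reason, with that of Mucl3, the gene over 1 TPM that differed most between the pups. Each sequence is the RefSeq window from 250 bases before to 50 bases after an annotated start on GRCm38.p6, on the gene's own strand, and such windows were found for 7 of the 10 genes, 8 in all. Muc13 has a pair of annotated starts. Capitals mark GGTCAAAGG, or CCTTTGACC where it lies on the other strand, a direct repeat of the kind bound by HNF4 factors, and GTTAAT, the hexamer of HNF1 sites. These motifs and TATAAA were searched on both strands and were chosen after the sequences were seen.
Muc13, upstream start, chr16:33793787-33794086, plus strand: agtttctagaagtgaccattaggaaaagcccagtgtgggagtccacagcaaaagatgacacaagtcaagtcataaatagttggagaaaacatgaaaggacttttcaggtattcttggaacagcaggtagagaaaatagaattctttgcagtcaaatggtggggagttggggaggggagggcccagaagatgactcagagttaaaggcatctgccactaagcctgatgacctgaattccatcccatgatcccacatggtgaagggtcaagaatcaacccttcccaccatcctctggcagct
Muc13, downstream start, chr16:33794239-33794538, plus strand: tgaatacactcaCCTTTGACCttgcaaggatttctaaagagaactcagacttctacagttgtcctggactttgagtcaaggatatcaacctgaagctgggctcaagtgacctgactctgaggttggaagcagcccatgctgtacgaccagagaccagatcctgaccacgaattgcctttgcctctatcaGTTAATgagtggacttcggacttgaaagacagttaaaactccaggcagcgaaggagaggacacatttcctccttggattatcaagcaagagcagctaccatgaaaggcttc
Muc3, chr5:137165997-137166296, minus strand: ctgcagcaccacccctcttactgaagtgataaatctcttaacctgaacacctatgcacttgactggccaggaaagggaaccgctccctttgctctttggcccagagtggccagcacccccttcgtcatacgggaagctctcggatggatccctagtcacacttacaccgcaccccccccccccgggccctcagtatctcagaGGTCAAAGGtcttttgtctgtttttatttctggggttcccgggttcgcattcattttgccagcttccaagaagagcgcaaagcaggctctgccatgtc
Mucl3, chr17:35643646-35643945, minus strand: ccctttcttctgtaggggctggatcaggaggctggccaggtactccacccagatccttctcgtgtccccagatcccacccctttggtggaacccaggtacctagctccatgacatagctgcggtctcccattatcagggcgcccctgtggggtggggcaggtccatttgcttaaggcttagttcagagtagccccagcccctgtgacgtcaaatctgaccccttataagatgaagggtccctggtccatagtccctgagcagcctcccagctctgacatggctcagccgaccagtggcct

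The direct repeat was present in 2 of the 8 windows, those of the downstream Muc13 start and of Muc3. It lay at offset -238 from the RefSeq start of Muc13 and at offset -48 from that of Muc3. Among all 32851 RefSeq windows of this length, 113 held it (0.344%). The GTTAAT hexamer was found in 1 of the 8 windows, at offset -61 of the downstream Muc13 start, and in 7.10% of all windows. The RefSeq start at base 33794489 lies 122 bases downstream of base 33794367, where GENCODE begins the main Muc13 transcript. Counted from the GENCODE start, the direct repeat lies at offset -116 and the hexamer at offset 61, inside the transcript. TATAAA was found at offset -31 of Muc1 and -36 of Muc4, and in 13.6% of all windows. These matches are descriptions of letters, and binding was not measured here.

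Many mucin coding sequences hold tandem repeats, which bear on how short reads are placed. In Muc13 an 81-base unit stood in 5 identical copies in the 2942-nt transcript, of which bases 278 to 520 hold the first 3. All bases are in capitals because the 3 copies do not differ. In Muc1 the closest 3 units in a row were 63 bases long, at bases 636 to 824 of the 2242-nt transcript, and capitals mark the 43 positions (68.3%) at which all 3 are identical.
Muc13 repeat unit: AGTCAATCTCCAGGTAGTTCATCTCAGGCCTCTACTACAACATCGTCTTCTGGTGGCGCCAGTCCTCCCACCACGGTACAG
Muc1 repeat unit 1: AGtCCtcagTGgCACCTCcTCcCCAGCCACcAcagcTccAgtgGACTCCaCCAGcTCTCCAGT
Muc1 repeat unit 2: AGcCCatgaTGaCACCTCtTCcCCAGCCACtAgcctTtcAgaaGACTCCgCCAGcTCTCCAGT
Muc1 repeat unit 3: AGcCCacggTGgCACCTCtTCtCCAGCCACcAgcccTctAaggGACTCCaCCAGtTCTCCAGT

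Over windows of 100 nt, the read length implied by the deposited effective lengths, 11.6% of those in the longest Muc13 transcript occurred more than once in it. The share was 19.5% in Muc5ac, 16.02% in Muc5b, 7.21% in Muc6, 2.31% in Muc4 and 0% in the longest transcripts of Muc1, Muc15, Muc20 and Mucl3. For Muc3 only its shortest transcript, of 955 nt, was scanned. The share there was 0%, and the longer Muc3 forms were not covered. No window of these transcripts occurred in another of the 10 genes, in Muc2 or in Muc3a. A read from these repeats can therefore match several places in its own gene while matching only that gene within this set.

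Muc13, a membrane mucin of the apical surface of gut epithelium with a short mucin domain and EGF-like domains, was by far the most abundant. Its level was 368 TPM in pup 1 and 379.7 TPM in pup 2 (the deposited measure of transcript abundance per length), from 37651 and 29747 estimated reads. The mean was 374 ± 8.10 TPM (SD, n = 2), and the gene ranked 341 of 21461 nuclear protein-coding genes by mean TPM. Both pups lay close together, at a ratio of pup 2 to pup 1 of 0.985. Both values lay just above the authors' own deposited interval of TPM, 359 to 366 in pup 1 and 368 to 376 in pup 2, whose coverage level is not stated. Muc13 made up 90.3% ± 0.486 (SD, n = 2) of the summed TPM of the glycocalyx mucins.

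Muc3, the large membrane mucin of small-intestinal enterocytes, came next. It was at 34.55 TPM in pup 1 and 36.35 TPM in pup 2 (1739 and 1322 reads), a mean of 35.5 ± 1.27 TPM (SD, n = 2), rank 3220. Muc13 stood 10.5-fold above Muc3 on the log2(TPM + 0.1) scale (log2 3.40 ± 0.020, SD, n = 2), and by log2 4.46 without length normalisation. Muc3 held 8.55% ± 0.0760 (SD, n = 2) of the glycocalyx sum, so these 2 genes together left little to the other 4. The Muc3 level rests on an annotation shorter than the gene. Its 3 annotated transcripts were 955, 1289 and 1823 nt long, and RefSeq extends the gene 16.7 kb beyond the annotated 5′ end at base 137149322 of chromosome 5, to base 137166048. The neighbouring Muc3a, 59.5 kb away, is annotated as a separate 1881-nt gene on the same strand and was at 13.8 and 14.4 TPM, with a log2 ratio of Muc3 to Muc3a of 1.33 ± 0.0035 (SD, n = 2).

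Muc1, a membrane mucin of most simple epithelia, was low. It was at 2.85 TPM in pup 1 and 5.43 TPM in pup 2 (149 and 239 reads), a mean of 4.14 ± 1.82 TPM (SD, n = 2). Pup 2 was the higher, at a ratio of 2.00 with an exact 95% interval of 1.62 to 2.47. Muc13 stood 92.6-fold above Muc1 (log2 6.53 ± 0.61, SD, n = 2; 7.44 without length normalisation), and the spread of that ratio came mostly with Muc1.

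Muc4, the largest of the membrane mucins here and a known partner of the receptor ErbB2, was under 1 TPM in both pups. It was at 0.76 TPM in pup 1 and 0.80 TPM in pup 2, from 86 and 58 reads, with no difference beyond counting error (ratio 0.841, 0.592 to 1.19). Its level depends on how the reads are divided among transcripts: the authors' posterior mean TPM gave a mean of 1.29 for the same libraries. Muc20, a membrane mucin known from kidney that binds the receptor Met, had 2 reads in pup 1 and 1 in pup 2 (0.03 and 0.02 TPM). Muc15, a small membrane mucin, had 2 reads in pup 1 (0.02 TPM) and none in pup 2, where 0 reads allow up to 3 counts, or 0.0433 TPM. At this depth Muc15 and Muc20 lay at or under that floor in both pups, so their order was not resolved.

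Among the secreted gastric-type mucins, only Muc6 was above 1 TPM. Muc6 was at 7.89 TPM in pup 1 and 7.14 TPM in pup 2 (2333 and 1636 reads), a mean of 7.52 ± 0.530 TPM (SD, n = 2). It held 97.9% ± 2.58 (SD, n = 2) of the gastric-type sum. Muc5b was at 0.02 TPM in pup 1 and 0.25 TPM in pup 2, from 9 and 102 reads. Muc5ac was listed at 0 TPM in pup 1 with 1 read and at 0.04 TPM in pup 2 with 12 reads. Both genes were higher in pup 2, at levels far below 1 TPM in each pup. Muc6 stood 64.3-fold above Muc5ac on the log2(TPM + 0.1) scale (log2 6.01 ± 0.44, SD, n = 2), and by log2 3.06 with a pseudocount of 1 TPM.

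Mucl3, which stands in neither list, was the most variable gene of those above 1 TPM. It was at 2.28 TPM in pup 1 and 13.4 TPM in pup 2 (206 and 930 reads), a mean of 7.86 ± 7.89 TPM (SD, n = 2). Its lower pup lay below both pups' Muc6 and Muc1 in pup 1, and its higher pup above all of these, so the ranges of Mucl3 and Muc6 overlapped.

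In order of mean TPM the genes ran Muc13, Muc3, Mucl3, Muc6, Muc1, Muc4, Muc5b, Muc20, Muc5ac and Muc15. Neighbours whose pup ranges overlapped were Mucl3 with Muc6, Muc5b with Muc20, Muc20 with Muc5ac, and Muc5ac with Muc15. The other 5 steps were larger than the spread between pups. The order of Muc3 and Muc6 holds per annotated length only. In CPM, counts scaled to library size without division by length, Muc6 stood above Muc3, at 52.3 and 47.0 CPM against 39.0 and 38.0 CPM. The annotated Muc6 transcripts are several times longer than those of Muc3, whose annotation is shorter than the gene. With detection set at 1 TPM or more in both pups, 5 of the 10 genes were detected: Muc13, Muc3, Mucl3, Muc6 and Muc1. That limit was passed by 32% of all genes and by 59.1% of nuclear protein-coding genes.

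By list medians, the glycocalyx list stood above the gastric-type list in both pups. The difference between list medians of log2(TPM + 0.1) was 3.73 in pup 1 and 2.67 in pup 2, a mean of 3.20 ± 0.75 (SD, n = 2), or 9.20-fold. The medians rest on Muc1 and Muc4 against Muc5b, so the levels of Muc13, Muc3 and Muc6 do not set its size. Muc5b was at 0.02 TPM in pup 1, below the pseudocount, and with a pseudocount of 1 TPM the mean difference was 1.40. Muc6, at 7.52 TPM on average, lay above Muc1, Muc4, Muc15 and Muc20. With 2 samples of 1 group an exact test cannot go below p = 0.5, so no test was made. The size of this contrast depends on which genes enter. It was 0.59 with Muc2 among the secreted mucins and 4.15 with Mucl3 counted as a glycocalyx mucin. With detected members only it was 2.22, and Muc6 alone then stood for the gastric-type list. The summed levels were further apart, at 406 and 422 TPM for the glycocalyx list and 7.91 and 7.43 TPM for the gastric-type list, because Muc13 dominates the first sum.

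Set against Muc2, Muc13 was the higher, and every other gene the lower. Muc2 was at 141 TPM in pup 1 and 134 TPM in pup 2. Muc13 stood 2.72-fold above it (log2 1.44 ± 0.081, SD, n = 2), Muc3 stood below it (log2 -1.95 ± 0.10), and Muc2 stood 18.1-fold above Muc6 (log2 4.18 ± 0.050). Without length normalisation Muc13 over Muc2 was log2 2.42 and Muc2 over Muc6 log2 1.68. The Muc2 gene model is in pieces: its reads were assigned to fragments of 241 to 2926 nt, most of them marked as incomplete in GENCODE M21, so its level per length carries that limit. Against Epcam, an adhesion protein of all intestinal epithelial cells at 889 and 861 TPM, Muc13 stood at log2 -1.23 ± 0.064 (SD, n = 2).

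Between the pups, 3 of the genes were called more than 2-fold higher in pup 2: Mucl3, Muc5b and Muc5ac. For each gene the ratio of pup 2 to pup 1 was taken from counts scaled by TMM library sizes, and a gene was called when its exact 95% interval lay wholly above 2 or below 0.5. The interval covers counting error only and compares these 2 libraries. In bulk tissue, more cells of a type and more RNA per cell cannot be told apart. Of the 8 genes with a summed count of 10 or more, 3 were higher in pup 2 and 0 lower, against 0.43% of 19088 genes higher, 0.367% lower and 0.796% either way. Muc15 and Muc20 had too few reads for a ratio.

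Of the called genes, Mucl3 was 5.63-fold higher in pup 2 (4.84 to 6.58). Muc5b was 14.1-fold higher (7.16 to 31.8). Muc5ac had a ratio of 15.0 (2.21 to 640), an interval as wide as its single read in pup 1 makes it. Of the other gastric-type mucin, Muc6, pup 2 held slightly less, at 0.875 (0.821 to 0.932). None of the 4 glycocalyx mucins tested was called: Muc13 was at 0.985 (0.971 to 1.00), Muc3 at 0.948 (0.882 to 1.02), Muc4 at 0.841 and Muc1 at 2.00. Scaled to spike-in totals instead, which rest on 534 and 200 reads, all ratios rose by log2 1.10, and 5 genes were called, Muc1 (4.28) and Muc13 (2.11) in addition. The ratios of Muc13, Muc3, Muc4 and Muc6, under 1 with TMM, all turned above 1 with that shift.

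Some stomach markers differed between the same libraries. Of 9 genes listed as gastric pit markers, all 9 had a ratio above 1 and 6 were called higher in pup 2. Of all 19088 genes tested, 9260 had a ratio above 1 and 0.43% were called higher in pup 2. The summed level of the 9 listed pit markers was 102 TPM in pup 1 and 388 TPM in pup 2. Tff1, the trefoil peptide of gastric pit cells, was at 50.4 and 223 TPM (ratio 4.23), Gkn2, a gastrokine, at 6.11 and 48.3 TPM (ratio 7.55), and Gkn3 at 29.9 and 52.1 TPM (ratio 1.67, not called). Barx1, a homeobox gene of stomach mesenchyme, was at 0.24 and 1.65 TPM (ratio 6.69, called). The gland markers, summed at 100.1 and 183 TPM, were mixed: of 4 tested, Pgc (pepsinogen C) was called at 3.19, Tff2 of mucous neck and Brunner's gland cells had 1.67 and was not called, and the parietal cell pump gene Atp4a had 0.367 on 34 and 10 reads. Atp4b had no read in either pup, and Gif and Chia1 had 1 or 2 reads in each. The part of stomach RNA in the ratios of Mucl3, Muc5b and Muc5ac was not tested.

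No gene of the other cell type lists was called, beside 0.796% of all genes tested. None of 8 goblet markers tested was called. Tff3 was at 1771 and 1640 TPM (ratio 0.885) and Muc2 had a ratio of 0.888. Of the 9 goblet markers measured, 2 had a ratio above 1. The lowest ratios were those of Spink4, at 0.655 (0.625 to 0.686), and Zg16, at 0.738 (0.699 to 0.779). The enterocyte (7 tested), general epithelial (7), mesothelial (5), pancreatobiliary duct (4), endothelial (4), immune (5), squamous (2) and airway (1) lists each had 0 called in either direction. The airway genes Scgb3a2 and Bpifa1 had no read in either pup, Scgb1a1 had 2 and 0 reads, and Scgb3a1 was at 2.58 and 3.50 TPM. Of the squamous keratins, Krt5 and Krt13 had at most 5 reads in a pup, and Krt14 was at 8.13 and 7.26 TPM. The part of airway or squamous RNA in the Muc5b and Muc5ac ratios was not tested.

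**Figure D1:**
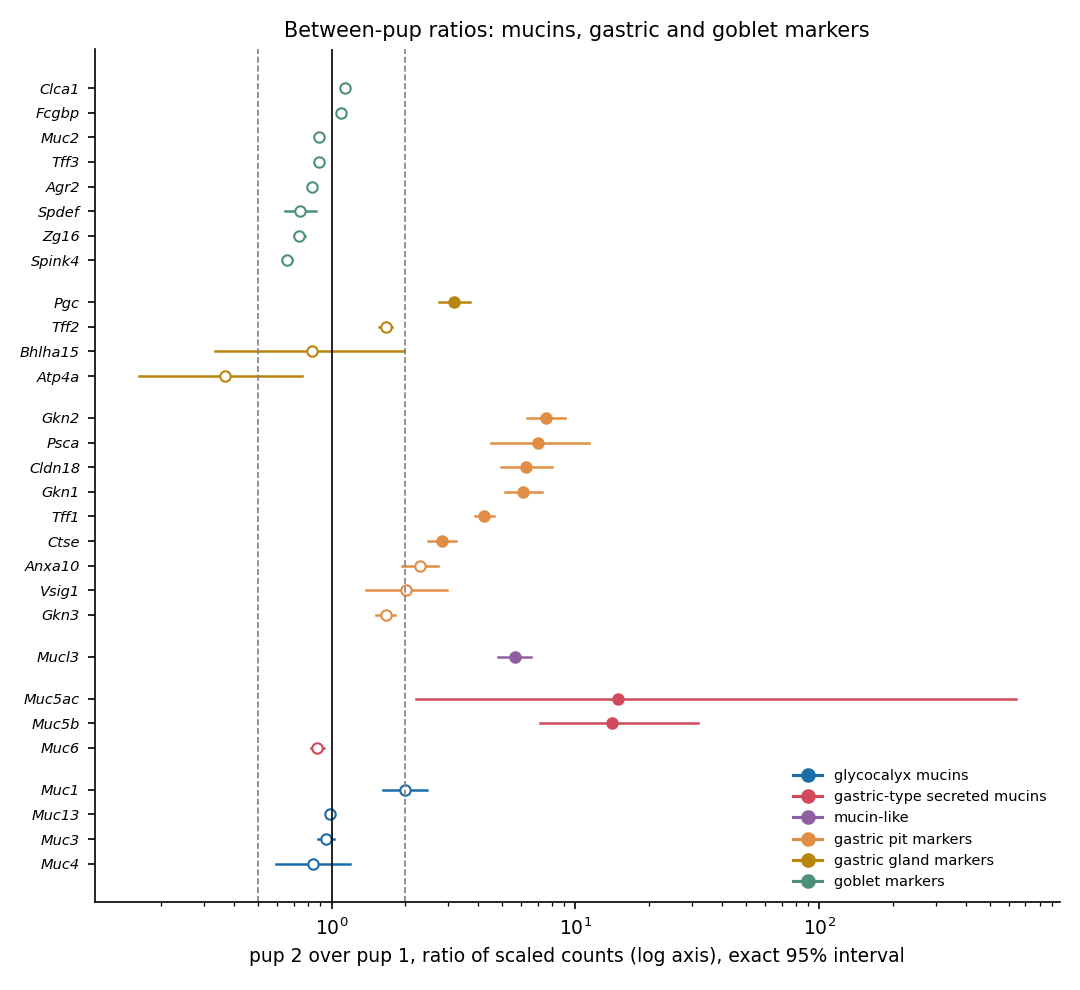
Ratio of pup 2 to pup 1 (log axis) with exact 95% intervals for the mucins tested and for gastric pit, gastric gland and goblet markers; filled points were called, dashed lines mark 0.5 and 2. Mucl3, Muc5b and Muc5ac lie to the right with 6 of 9 pit markers, and Muc13, Muc3 and Muc6 lie near 1. The goblet markers range from 0.655 (Spink4) to 1.14 (Clca1).

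At the transcript level Muc13 was nearly a single product. The 2942-nt transcript that starts at base 33794367 of chromosome 16 took 99.6% ± 0.064 (SD, n = 2) of the gene's TPM. The 2969-nt transcript from the upstream start at 33794037 was given 147 and 143 reads, with posterior SDs of 179 and 103 reads. In pup 1 its count lay within 1 posterior SD of 0, so the files do not resolve whether the upstream start was used. At the gene level the posterior SD was 0.28 and 0.41 reads, so nearly all Muc13 reads were assigned to the gene without doubt.

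Muc6 was divided among 3 long transcripts. The 8757-nt form took 62.8% in pup 1 and 76.9% in pup 2, and the 8650-nt form 26.2% and 14.1%. Their posterior SDs of 178 and 131 reads for the longer form show how alike they are. The 5087-nt form took 10.98% and 8.99%, with posterior SDs of 10.2 and 8.55 reads.

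Muc1 came mostly from its full-length form. The 2242-nt coding transcript took 60.9% and 68.9% of TPM and 134 and 221 reads. Short noncoding forms of 476 and 500 nt took the rest of the TPM with 15.1 and 18.1 reads in all, since few reads on a short transcript give a large TPM. The coding transcript alone was at 1.74 and 3.74 TPM.

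Muc4 was led by fragments. The 1348-nt and 1190-nt transcripts together held 75.05% of its TPM in pup 1 and 84.9% in pup 2, on 24.4 and 22.4 reads. The 11277-nt full-length form was given 44.4 reads in pup 1 and 0 in pup 2, with posterior SDs of 14.8 and 10.2 reads, and a 10805-nt noncoding form 7.72 and 35.6 reads. By expected counts, reads of the long Muc4 forms were thus placed on different forms in each pup, within a pair of transcripts that nearly coincide. By the authors' posterior mean counts the division was more even. The 11277-nt and 10805-nt forms had 27.77 and 23.45 reads in pup 1 and 15.64 and 18.28 in pup 2. Mucl3 and Muc5b have 1 annotated transcript each, of 2611 and 14964 nt.

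**Figure D2:**
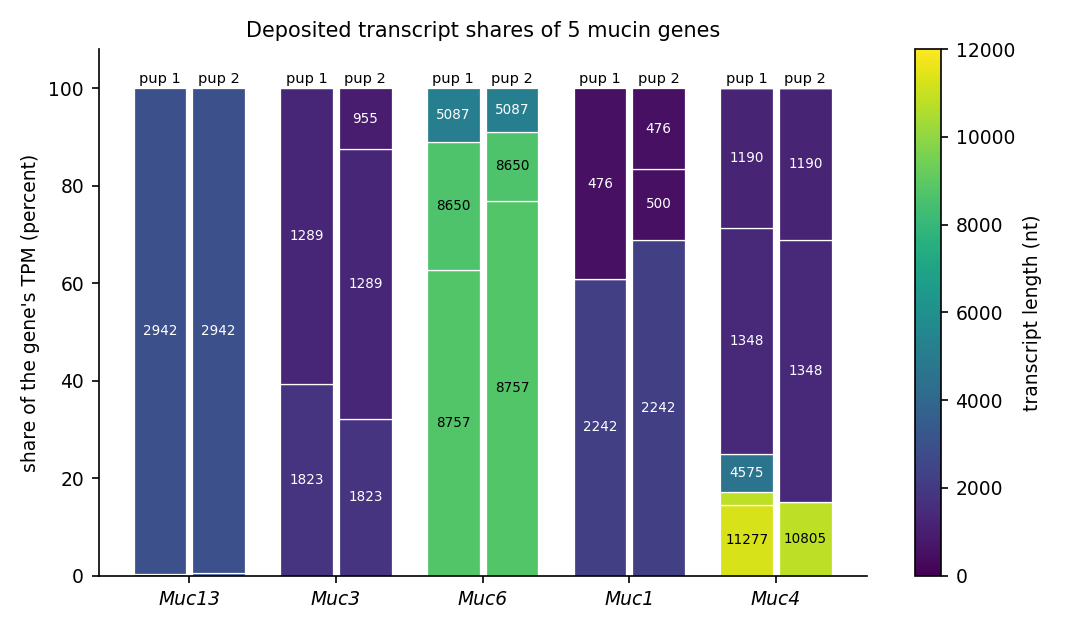
Deposited share of each transcript in its gene's TPM (percent) for 5 genes in each pup, coloured by length and labelled with it in nt where the share is above 6 percent. Muc13 is 1 colour at 99.6% on average, whereas Muc4 is led by transcripts of 1348 and 1190 nt and Muc1 by its 2242-nt form.

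The secreted mucins lie side by side on chromosome 7 (mm10), where Muc6, Muc2, Muc5ac and Muc5b are the 4 annotated genes of a span of 239.6 kb. Muc6 lies at 141633456 to 141655319 on the minus strand. Muc5ac lies at 141788972 to 141819231 and Muc5b at 141839070 to 141873084, both on the plus strand like Muc2. Muc2 lies 34.3 kb from Muc5ac and stood above it by log2 10.18 ± 0.39 (SD, n = 2) with a pseudocount of 0.1 TPM and by log2 7.08 with 1 TPM. Since Muc5ac is listed at 0 TPM in pup 1, the pseudocount sets the size of that difference. Between the pups, the left-hand neighbours Muc6 and Muc2 had ratios of 0.875 and 0.888, and the right-hand neighbours Muc5ac and Muc5b had 15.0 and 14.1.

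**Figure D3:**
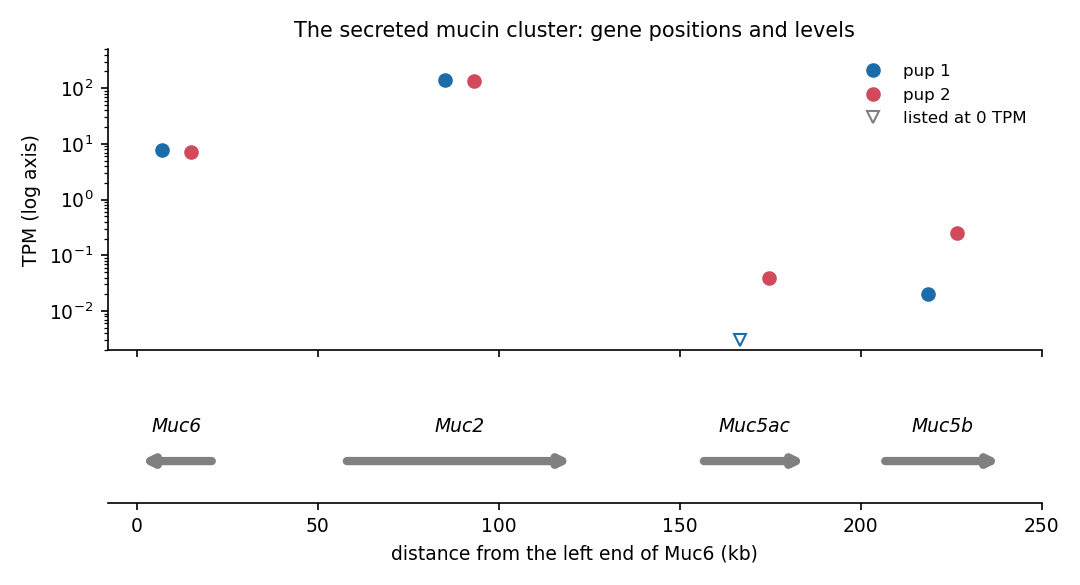
Gene positions in kb from the left end of Muc6, with arrows in the direction of transcription, and TPM of each gene by pup (log axis; the open triangle is listed at 0). Muc2 lies at 141 and 134 TPM between Muc6 at 7.89 and 7.14 TPM and Muc5ac and Muc5b, both under 0.3 TPM.

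On chromosome 16 lie 3 of the glycocalyx genes. Muc4 (32735886 to 32782391, plus strand) and Muc20 (32777419 to 32797435, minus strand) overlap tail to tail by 4973 nt. No source used here says whether counting used strand, so reads in that overlap could belong to either. The 2 and 1 reads of Muc20 were given to its 2299-nt transcript, whose left end at base 32786040 lies outside the overlap. Its 3673-nt form, which reaches the overlap, was given 0 reads in each pup. Muc13 (33794037 to 33819934, plus strand) lies 996.6 kb beyond Muc20 and overlaps the antisense gene Gm15657 by 2838 nt, which held 17.1 and 35.2 reads, few beside those of Muc13. Levels in this region differed widely, from 0.025 TPM on average for Muc20 to 374 TPM for Muc13.

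The remaining genes lie apart. Muc1 is at 89229057 to 89233381 of chromosome 3 (plus strand) and Muc3 at 137134922 to 137149322 of chromosome 5 (minus strand). Muc15 (chromosome 2, 110721340 to 110739527, plus strand) lies wholly inside Ano3 on the other strand, which held 3 reads in each pup. Mucl3 (chromosome 17, 35635752 to 35643695, minus strand) lies wholly inside the span of Sfta2 on the other strand, which held 12 and 9 reads. The part of reads from Sfta2 in the Mucl3 values was not tested.

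The other listed mucins and mucin-type proteins were mixed. Of 12, 9 were measured, 5 were detected and 0 of 6 tested were called between pups. Beside them, 59.1% of nuclear protein-coding genes were detected and 0.796% of all genes tested were called. The sialomucin Cd164, a small endolysosomal and surface protein, was at 145 and 152 TPM, and Mcam, an adhesion protein of vessel walls, at 24.4 and 26.3 TPM. The gel mucin Muc19 of salivary glands and the genes Mucl1 and Mucl2 had no reads. Muc16, Muc17 and Muc21 were not matched by symbol and are not analysed here.

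Of 25 core O-glycosylation genes, which start and extend O-glycans, 16 were detected, a share near the 59.1% of nuclear protein-coding genes. Their median was 6.94 TPM in pup 1 and 8.59 TPM in pup 2, and 0 of 24 tested were called, beside 0.796% of all genes tested. Galnt1, which adds the first sugar to serine and threonine, was at 61.8 and 65.4 TPM, and Galnt6, of the same family, at 58.2 and 52.4 TPM. C1galt1c1, the chaperone of the core 1 synthase, was at 55.3 and 49.6 TPM. The core 1 synthase C1galt1 itself was at 4.11 and 4.16 TPM, and the core 3 synthase B3gnt6 at 0.17 and 0.06 TPM (14 and 4 reads), a pair named after their values were seen. The testis-type gene Galntl5 had no reads.

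The list of glycocalyx partners holds galectins, membrane scaffolds and the sheddases Adam10 and Adam17. All 8 were detected and 0 called, beside 59.1% of nuclear protein-coding genes detected and 0.796% of all genes tested called. List medians were 258 and 255 TPM, with levels down to 7.18 and 7.13 TPM for Adam17. The galectin Lgals4, a glycan-binding protein of enterocytes, was at 1893 and 1962 TPM, and Lgals9 at 471 and 422 TPM. Slc9a3r1, the PDZ scaffold that ties membrane proteins to ezrin, was at 545 and 606 TPM. Of 15 transcription factors listed for mucin genes 12 were detected and only Barx1 was called. Elf3, an epithelial ETS factor, was at 132 and 128 TPM, Hnf4a, the enterocyte nuclear receptor that binds direct repeats of the kind marked in the Muc13 and Muc3 start windows, at 40.7 and 42.4 TPM, and Gata6 at 39.0 and 43.8 TPM. Over all nuclear protein-coding genes the median was 2.88 and 3.07 TPM.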

How the data were processed

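RNA-seq of 2 newborn intestines was used as deposited, with 1 gene table and 1 transcript table per library. Assembly mm10 and annotation GENCODE M4 are named in a text file the authors deposited. Aligner, quantifier and strand setting: not given in the sources used here. Expected counts (estimated read counts, shared reads divided) and posterior mean counts were deposited by the authors, per the file headers. The authors' TPM and FPKM, per the file headers, take account of effective length and, as their totals show, of spike-ins too; FPKM was not used. The deposited interval bounds of TPM and posterior SDs of counts, handled as signal values, are the authors' own. The deposited transcript shares are in percent.

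Identifiers were matched to GENCODE M21 on GRCm38 (the assembly of mm10) for 42462 of 43346 genes (98.0%). Start windows came from RefSeq. Levels are means ± SD (n = 2); contrasts and pairs used log2(TPM + 0.1) per pup. Between-pup ratios used rounded expected counts, TMM sizes from edgeR 4.0.16 in R 4.3.3 and exact (Clopper-Pearson) 95% intervals from SciPy 1.17.1; counts are reads without molecular identifiers, so intervals and floors (3 counts) cover counting error only. The call rule was tested on simulated Poisson counts without variation between animals, so that test covers counting error only. The deposited labels call the libraries biological replicates. Alternatives were other scalings (library totals, DESeq2 1.42.0, spike-ins, epithelial genes), pseudocounts, detection limits, values and list memberships. Named were all 10 genes, Muc2, and of each other list the 3 highest and up to 3 under 0.1 TPM; others illustrate marker lists or transcript limits and were chosen after their values were seen. The genes and lists were chosen with earlier results of these data known.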

Additional observations from a re-analysis of the deposited data

How the results depend on the processing

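The glycocalyx list stayed above the gastric-type list under every alternative run, but the size moved from log2 3.20: to 1.40 with a pseudocount of 1 TPM, 1.67 without length normalisation, 2.37 with means in place of medians, 2.22 with detected members only, 4.15 with Mucl3 added and 0.59 with Muc2 among the secreted genes. It was 2.67 and 3.73 with either pup left out, and 3.60 without Muc6, an alternative chosen after seeing the data. Mucl3, Muc5b and Muc5ac were the genes called higher in pup 2 under TMM; the count was 5 with spike-in totals, which added Muc1 (4.28) and Muc13 (2.11) and shifted all ratios by log2 1.10, on 534 and 200 spike-in reads. Scaling to epithelial genes shifted ratios by log2 0.14 and left the count at 3. Of 32 ratios (8 genes tested under 4 scalings), 30 kept their call and those 2 gained one. Of 75 gene-pair values, 24 moved by more than the spread between pups and 0 reversed. Of the 24, 13 moved without length normalisation, 9 with a pseudocount of 1 TPM and 2 with posterior mean TPM. The 75 include values with either pup left out. Those could not count as moved, because with n = 2 each pup lies within 1 SD of the mean. The number of detected genes was 6 at 0.5 TPM and 5 at 2 TPM. Depth limits Muc15, Muc20 and Muc5ac, which had at most 12 reads in a pup. No paired analysis was possible because both libraries form 1 group.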
